A study of Rattus norvegicus with 14 samples.

Results

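Genes that set cell fate in the colonic epithelium were followed in rat colonocytes, the cells that line the colon, after a change in dietary protein. The 10 members were the receptor Notch1, its ligand Dll1, the Notch target Hes1, the secretory lineage factors Atoh1, Gfi1, Spdef and Klf4, and the intestinal identity factors Cdx1, Cdx2 and Hnf4a. They were chosen by name, as every non-control probe whose gene name on the array is one of these symbols. All 10 were found, with 12 of the 30367 probes and 10 of the 26276 gene names (Notch1 and Spdef had a pair of probes each). The male Wistar rats received a normal-protein diet (NPD, 14% of energy from protein) or an isocaloric high-protein diet (HPD, 55%) for 15 days, with whole milk protein in both. No genotype or drug was varied, and 7 NPD and 7 HPD rats were analysed, 1 array per rat. Colonocytes were released from the colon with a chelating buffer and were not sorted, so each RNA sample may hold any cell type of the crypt. Fewer cells of a type and less RNA per cell cannot be told apart.

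In the crypt, a cell that displays a Delta ligand activates the Notch receptor of its neighbour. The freed intracellular part of the receptor joins the DNA-binding protein RBPJ and turns on Hes1, a repressor whose targets include Atoh1. Cells with active Notch become absorptive colonocytes, and cells in which Atoh1 escapes repression become secretory: Gfi1 and Spdef act after Atoh1 in goblet cells, and Klf4 is needed for goblet cells to mature. Cdx1, Cdx2 and Hnf4a keep the epithelium intestinal.

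The probes decide what was measured for the members with more than 1, and for the Hes1 and Atoh1 pair, so their letters are shown here as the array files give them, 5′ to 3′ in the sense of the transcript, with rn4 coordinates. Every probe is 60 bases long. The first Spdef probe below has an open reading frame through all its codons, the Atoh1 probe has one that closes with its last codon (capitals), and the Spdef probe at transcript position 1669 and the Hes1 probe at position 1359 hold a stop codon in all frames. Of those with a closed frame only the last 30 bases are printed, with the polyadenylation word AATAAA in capitals. Of Notch1, the probe at position 7022 is printed whole and the probe at position 9315 by its last 30 bases, without capitals because neither holds that word.
Spdef A_64_P110544, transcript position 1240, chr20:5928348-5928407, minus strand: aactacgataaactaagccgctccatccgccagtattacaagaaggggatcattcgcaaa
Spdef A_64_P104029, transcript position 1669, chr20:5927866-5927925, minus strand: ggaatggatAATAAAggtgtaagataactg
Atoh1 A_64_P096727, transcript position 1192, chr4:94110842-94110901, plus strand: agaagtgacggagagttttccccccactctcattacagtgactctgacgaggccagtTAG
Hes1 A_64_P054708, transcript position 1359, chr11:72603477-72603538, minus strand: tatAATAAAagagtgaaggcttttaaaaaa
Notch1 A_44_P233932, transcript position 7022, chr3:4634122-4634181, minus strand: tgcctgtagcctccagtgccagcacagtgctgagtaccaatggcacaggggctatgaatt
Notch1 A_64_P132671, transcript position 9315, chr3:4631829-4631888, minus strand: tcctaagatgttgattcttactgtgtttta

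The promoter of Hes1 is printed because it is the textbook site where Notch acts. It is the RefSeq sequence of the 250 bases before the annotated start in GRCr8, on the minus strand, with the RBPJ core word TGGGAA in capitals wherever it stands on either strand.
Hes1 promoter, chr11:84213046-84213295: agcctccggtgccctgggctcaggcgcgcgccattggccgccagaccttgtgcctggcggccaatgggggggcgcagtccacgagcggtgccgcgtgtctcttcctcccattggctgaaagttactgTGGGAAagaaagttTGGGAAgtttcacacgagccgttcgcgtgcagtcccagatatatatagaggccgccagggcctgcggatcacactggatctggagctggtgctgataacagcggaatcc

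The word began 123 and 109 bases before the start of Hes1. All 10 members had a promoter in that table, and the word was found in 3 of them, with 2 matches each in Hes1, Dll1 and Spdef. Of the 33469 promoter windows of the same length, 22.1% held at least 1 match and 2.71% held 2 or more. The word CACNAG, bound by HES repressors, was found 4 times in the Hes1 window and in the Notch1 window and 2 times in that of Gfi1, on either strand, with 1 pair of overlapping matches in Notch1 and none that overlaps an RBPJ word. It was found in 37.2% of all windows, and 8.02% held 2 or more. The Atoh1 window held neither word. These are matches of letters and not measured binding.

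Between 18839 and 20976 probes per array were well above background, and arrays correlated with each other at 0.970 to 0.992. Arrays of the HPD group were dimmer, with a median background-subtracted signal of 112 ± 12.9 (SD, n = 7) against 149 ± 22.1 in the NPD group (p = 0.00408 by an exact permutation test, two-sided, and 0.00245 when arrays were regrouped within slides), so every level below is a log2 signal relative to the median of its own array. The arrays lay on 2 slides, each a scan run of its own, with 4 NPD and 3 HPD arrays on slide 1 and 3 NPD and 4 HPD arrays on slide 2. All 9 markers of epithelium were well above background on every array, and their summed level ranged from 12.97 to 13.29 (NPD) and from 13.01 to 13.58 (HPD). Summed markers of immune cells (11 of 11 on the array) ranged from 5.25 to 6.90 and from 5.27 to 5.54, and those of stroma and muscle, 3 of 11 of which were never well above background, from 3.81 to 4.86 and from 3.60 to 4.53. The part of these cells in the results below was not tested.

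No member passed the test between the diets. limma with Benjamini-Hochberg adjustment over all probes called 0 of the 12 member probes at a q-value below 0.1, where 0.0560% of all probes were called. At an unadjusted p below 0.05 the count was also 0, against 11.4% of all probes. With slide as a block it was 0 at that q-value (0.0889% of all probes), and of the 10 members in the deposited normalized values 0 were called (0.0681% of the genes there, and 10.5% with slide as a block, again with 0 members). The members' groups of values overlapped in 12 of 12 probes, and 0.274% of all probes had groups without overlap. Of the 12 member probes, 10 had a higher HPD mean (median log2 difference 0.08), beside 64.2% higher and a median of 0.11 over all probes, and the split became 9 of 12 after cyclic loess and 6 of 12 after normexp background correction. Cyclic loess and quantile normalization took the median of all probes to 0 and 0.01, and with only probes well above background it was 0.05. Differences of about 0.1 are thus of the size of the median over all probes, and their cause was not tested. Of the member probes, 11 were well above background on all 14 arrays and none was saturated.

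**Figure D1:**
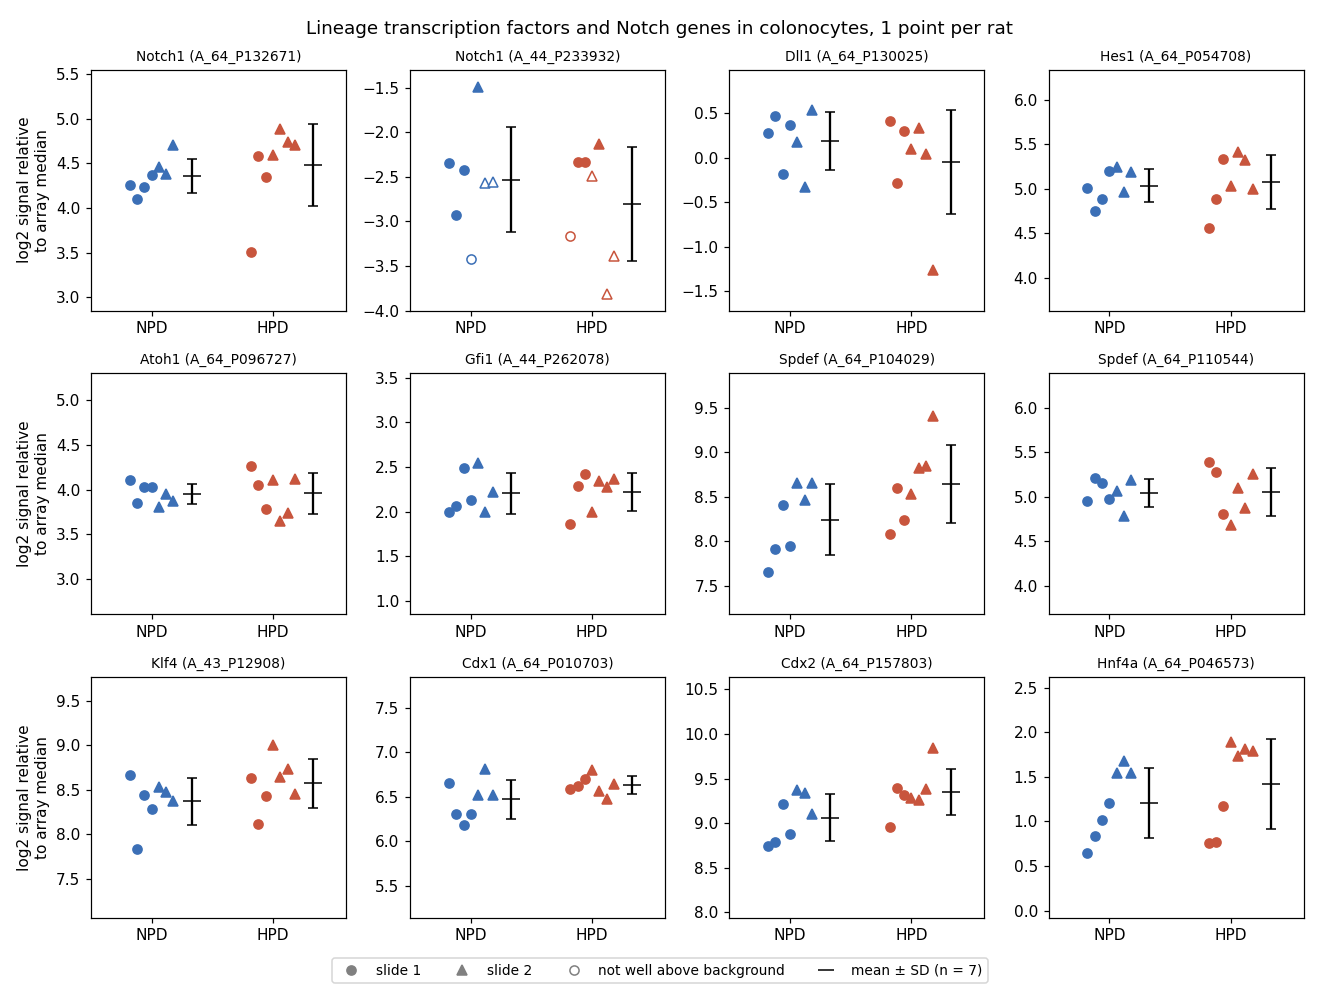
Level of each member probe in each rat, as log2 signal relative to the array median, with NPD in blue and HPD in red, circles for slide 1, triangles for slide 2, open symbols where the probe was not well above background, and bars for mean ± SD (n = 7). All panels span the same log2 range, every pair of groups overlaps, and Hnf4a separates by slide (0.65 to 1.21 on slide 1, 1.54 to 1.89 on slide 2).

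Notch1, the receptor, was represented by the probe at position 9315, which was measured on every array. Its level ran from 4.10 to 4.71 with a median of 4.37 in the NPD group, and from 3.51 to 4.89 with a median of 4.59 in the HPD group. The HPD group held both the lowest and the highest rats. The log2 difference was 0.12 (95% interval -0.27 to 0.52, q = 0.745 in limma), and it was -0.10 on slide 1 and 0.22 on slide 2. HPD replicate 1 lay at 3.51, apart from the next lowest HPD rat at 4.35, and without it the difference was 0.29 (q = 0.229 in limma). The Notch1 probe at position 7022 was well above background on 4 NPD and 3 HPD arrays, with levels of -3.42 to -1.49 and -3.81 to -2.13, so its difference of -0.27 (q = 0.662 in limma) rests in part on signals near background.

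Dll1, the ligand on signal-sending cells, had levels of -0.33 to 0.53 with a median of 0.27 in NPD rats, and of -1.26 to 0.41 with a median of 0.10 in HPD rats. All HPD rats but 1 lay within the NPD range. The log2 difference of -0.23 (95% interval -0.74 to 0.28, q = 0.633 in limma) rested on HPD replicate 7 at -1.26, and it was -0.03 without that rat (q = 0.958 in limma). Hes1, the repressor that Notch turns on, ran from 4.75 to 5.24 with a median of 5.01 in NPD rats and from 4.56 to 5.41 with a median of 5.03 in HPD rats. The HPD values reached past the NPD range at both ends. Its difference was 0.04 (95% interval -0.26 to 0.35, q = 0.887 in limma), which bounds the HPD to NPD ratio of Hes1 between 0.834 and 1.27.

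Atoh1, which commits a crypt cell to the secretory lineage, ran from 3.81 to 4.11 with a median of 3.95 in NPD rats. HPD rats ran from 3.65 to 4.26 with a median of 4.05. In the HPD group 2 rats lay above and 3 below every NPD rat, and the means were 3.95 ± 0.11 and 3.96 ± 0.23 (SD, n = 7). The log2 difference was 0.01 (95% interval -0.24 to 0.26, q = 0.975 in limma), a ratio of 1.01 with bounds of 0.846 and 1.20. Gfi1, a zinc finger repressor that keeps secretory progenitors from the enteroendocrine fate, ran from 1.99 to 2.54 (median 2.13) and from 1.86 to 2.42 (median 2.29), with a difference of 0.02 (95% interval -0.26 to 0.29, q = 0.958 in limma).

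Spdef, the ETS factor that drives the maturation of goblet cells, gave different values on its pair of probes. On the probe at position 1669 NPD rats ran from 7.66 to 8.66 with a median of 8.41, and HPD rats from 8.08 to 9.41 with a median of 8.60. In the HPD group 3 rats lay above every NPD rat, and 3 NPD rats lay below every HPD rat, and the log2 difference of 0.40 (95% interval -0.05 to 0.86) did not pass the test (q = 0.459 in limma, exact two-sided permutation p = 0.0944, and 0.058 within slides). It was 0.24 after normexp correction, and 0.06 in the deposited values, which are given by gene name and not by probe. Leaving out 1 rat took the difference on the probe at position 1669 to between 0.28, without HPD replicate 7, and 0.50, without HPD replicate 1. On the probe at position 1240, in the open frame printed above, NPD rats ran from 4.78 to 5.21 (median 5.07) and HPD rats from 4.68 to 5.39 (median 5.10), with a difference of 0.01 (95% interval -0.27 to 0.29, q = 0.974 in limma). The level of the first probe relative to the second changed by 0.39 between diets (p = 0.127 by an exact permutation test, two-sided, and 0.0555 within slides). After diet and slide means were removed, the probes of Spdef correlated at r = 0.55 and rho = 0.45 over 14 arrays.

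Klf4, a zinc finger factor of differentiated and goblet cells, ran from 7.83 to 8.66 (median 8.44) in NPD and from 8.11 to 9.00 (median 8.63) in HPD rats, a difference of 0.20 (95% interval -0.13 to 0.52, q = 0.530 in limma). In the HPD group 6 of 7 rats lay above the NPD mean, within groups that overlapped along most of their length. The Klf4 difference was 0.11 without NPD replicate 2, 0.13 without HPD replicate 4, 0.08 after cyclic loess, 0.05 after normexp and 0.04 in the deposited values. Beside these secretory factors, the summed level of 10 goblet cell products, all measured on every array, ranged from 12.87 to 13.34 in NPD and from 12.60 to 13.78 in HPD rats, with 3 genes higher and 7 lower, where 65.0% of all gene names were higher. The log2 differences of these products ran from -0.63 to 1.82, and 0 were called. At an unadjusted p below 0.05 in limma, 1 was higher and 2 were lower, beside 6.05% and 5.48% of all gene names. After normexp 3 were called, beside 16.9% of all gene names. In the deposited values with slide as a block 2 were called, beside 10.5% of the genes there.

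The identity factors all had higher HPD means, and none passed the test. After normexp correction the log2 differences of Cdx1, Cdx2 and Hnf4a were 0.00, 0.14 and 0.10, and in the deposited values they were 0.01, 0.14 and 0.11, against 0.16, 0.29 and 0.21 as reported below. After cyclic loess they were 0.09, 0.15 and 0.25. Cdx1, a homeobox factor of the differentiating epithelium, ran from 6.18 to 6.81 (median 6.52) in NPD and from 6.48 to 6.80 (median 6.62) in HPD rats. All 7 HPD rats lay above the NPD mean of 6.47 but inside the NPD range, and the difference was 0.16 (95% interval -0.08 to 0.40, q = 0.515 in limma). Cdx2, the master homeobox factor of the intestine, ran from 8.74 to 9.37 (median 9.10) and from 8.96 to 9.84 (median 9.32). In the HPD group 3 rats lay above every NPD rat, and the difference was 0.29 (95% interval -0.03 to 0.60, q = 0.453 in limma, exact two-sided permutation p = 0.0612, and 0.0637 within slides). On slide 1 it was 0.32 and on slide 2 it was 0.17. Leaving out 1 rat took the Cdx2 difference to between 0.20, without HPD replicate 7, and 0.35, without HPD replicate 1.

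Hnf4a, the nuclear receptor of the differentiated enterocyte, ran from 0.65 to 1.68 (median 1.21) in NPD and from 0.76 to 1.89 (median 1.73) in HPD rats. The 4 highest HPD rats, all on slide 2, lay above every NPD rat. The difference was 0.21 (95% interval -0.28 to 0.70, q = 0.654 in limma), and it was -0.03 on slide 1, 0.22 on slide 2 and 0.10 with slide as a block. Leaving out 1 rat took the Hnf4a difference to between 0.12, without NPD replicate 1, and 0.32, without HPD replicate 1 or 2. Slide itself separated Hnf4a by 0.78 (q = 0.000479 in limma). It also separated the Spdef probe at position 1669 by 0.60 (q = 0.00863), the Notch1 probe at position 9315 by 0.43 (q = 0.0407) and Cdx2 by 0.29 (q = 0.0855), always with slide 2 higher. These are 4 of the 12 member probes, beside 40.1% of all probes that limma called for slide. The other Spdef probe differed by -0.12 between slides (q = 0.484 in limma) and the other Notch1 probe by 0.12 (q = 0.798).

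**Figure D2:**
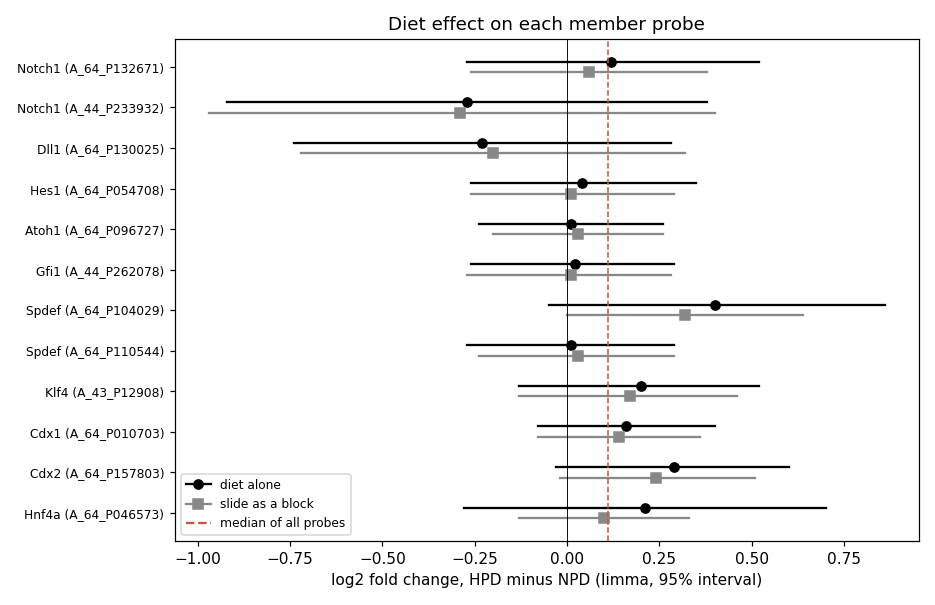
Log2 fold change (HPD minus NPD) of each member probe with its 95% interval from limma, with diet alone (black circles) and with slide as a block (grey squares), and the median of all probes as a dashed line at 0.11. Black intervals include 0 for every probe, from Dll1 at -0.23 and the dim Notch1 probe at -0.27 to Spdef at 0.40, and the slide block narrows Hnf4a most and moves it to 0.10.

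The rest of the Notch pathway was described from lists of its genes, with the brightest probe for each gene, and limma called 0.0533% of all gene names while 65.0% were higher. At an unadjusted p below 0.05 the 5 lists below held 1 of 9, 1 of 20, 2 of 12, 1 of 22 and 4 of 16 genes, beside 11.5% of all gene names (6.05% higher and 5.48% lower). Notch3, Rfng, Hes7 and Hnf4g are named below because their unadjusted p-values were among the smallest of their lists. Their permutation p-values come from the same values and are no separate evidence. Of the 9 receptors and ligands, all on the array, 7 were higher, with a median log2 difference of 0.21, and 0 were called. The median over all probes was 0.11. Notch3 ran from 0.45 to 0.62 (median 0.53) in NPD and from 0.58 to 0.94 (median 0.77) in HPD rats, and 6 of 7 HPD rats lay above every NPD rat. Its difference of 0.22 had an exact two-sided permutation p of 0.00117 and q = 0.417 in limma. Jag2 (0.29), Dll4 (0.23) and Dll3 (0.21), further ligands, had q-values of 0.455, 0.473 and 0.504, and the second probes of Jag2 and Dll4 were lower by -0.20 and -0.13.

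Of 22 genes that process the receptor or carry it through the cell, 20 were on the array, with 14 higher, a median of 0.07 and 0 called. Rfng, a fringe glycosyltransferase that adds sugar to the receptor and alters its response to ligands, ran from 1.72 to 2.04 (median 1.97) in NPD and from 1.16 to 1.87 (median 1.68) in HPD rats. All 7 HPD rats lay below the NPD mean and 5 below every NPD rat, with a log2 difference of -0.36, an exact two-sided permutation p of 0.00291 and q = 0.417 in limma. It was -0.24 on slide 1 and -0.41 on slide 2. Under other processing its q-value in limma was 0.0824 after normexp correction, where 16.9% of all gene names were called, and 0.039 in the deposited values when slide was a block. Dtx4 (-0.26), a ubiquitin ligase of the pathway, and Adam17 (-0.27), a protease that can cut the receptor, had q-values of 0.471 and 0.515, and Numbl, an inhibitor, was not well above background on any array.

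Of 15 genes of the nuclear complex and its targets, 12 were on the array, with 11 higher, a median of 0.16 and 0 called. Hes7, a HES family repressor known from the segmentation clock, ran from 9.65 to 10.37 (median 9.88) in NPD and from 10.17 to 10.88 (median 10.35) in HPD rats. Its only probe was brighter than 99% of all probes, where the Hes1 probe was brighter than 84.5%. Whether the Hes7 probe reads Hes7 alone was not tested. All 7 HPD rats lay above the NPD mean, and the difference was 0.43 on the log2 scale (exact two-sided permutation p = 0.00874, q = 0.417 in limma). After normexp correction, where 16.9% of all gene names were called, the Hes7 difference was 0.28 (q = 0.0947 in limma). After cyclic loess it was 0.26 (q = 0.497 in limma). Hey1 and Hes2, related repressors, were each 0.26 higher (q = 0.452 and 0.470), and Hey2 was well above background on 0 NPD and 1 HPD array, so no fold is given. Rbpj, the DNA-binding partner of the receptor, gave 0.20 on its brighter probe and -0.50 on the other (q = 0.609 and 0.430 in limma).

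Among 23 secretory lineage factors 22 were on the array, with 14 higher, a median of 0.02 and 0 called. Beside Spdef, the smallest p-values belonged to Isl1, Neurog3 and Pax4, which act in enteroendocrine cells. Neurog3 was 0.25 higher (q = 0.488 in limma), Pax4 gave -0.32 (q = 0.515), and Isl1, with the smallest p of the list, was well above background on 2 NPD arrays and 1 HPD array only. Among 17 absorptive and identity factors 16 were on the array, with 10 higher, a median of 0.15 and 0 called, while 2 were higher and 2 lower at an unadjusted p below 0.05. Hnf4g, the paralogue of Hnf4a, ran from 0.60 to 1.33 in NPD and from 1.06 to 1.46 in HPD rats (difference 0.31, exact two-sided permutation p = 0.00758, q = 0.417 in limma). Nr5a2, a nuclear receptor of crypt cells, gave -0.38 (q = 0.433) and -0.43 (q = 0.417) on its pair of probes.

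**Figure D3:**
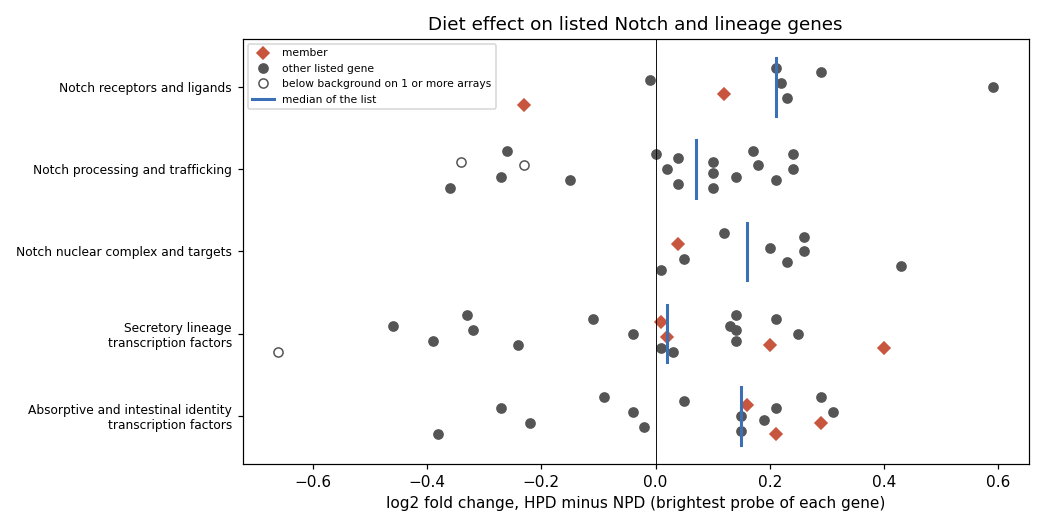
Log2 fold change (HPD minus NPD) of each gene of the 5 lists on its brightest probe, with members as red diamonds, other genes as grey circles, open symbols where a gene was below background on 1 or more arrays, and a blue bar at the median of each list. The list medians lie between 0.02 and 0.21 and include the 7 genes not well above background on any array of a diet, Hey2 among them, which are not drawn.

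Whether the members moved together from rat to rat was examined over 14 arrays after the means of diet and slide were removed. All 45 pairs of members were taken on their brightest probes, with permutation tests of 100000 resamples. The resamples shuffled values over all 14 arrays and made no allowance for the removed means, so these p-values may be too small. Spdef was taken on its probe at position 1669. Its other probe, which correlated with that probe at r = 0.55, was not run in the pairs. Spdef and Cdx2 rose and fell together (r = 0.83, rho = 0.82, adjusted p = 0.00607 and 0.0241 by permutation and Benjamini-Hochberg). Dll1 ran against Cdx2 (r = -0.82, rho = -0.75, adjusted p = 0.00607 and 0.0444 by the same tests). Without the 2 arrays farthest from the median, r was 0.66 and -0.66. Within slide 1 and slide 2 Spdef with Cdx2 gave r = 0.90 and 0.77, and Dll1 with Cdx2 gave -0.75 and -0.91. Gfi1 and Spdef gave r = 0.69 and rho = 0.79 (adjusted permutation p = 0.0556 and 0.0241), and Gfi1 and Cdx2 gave r = 0.65 and rho = 0.73 (0.0936 and 0.0444).

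Hes1 and Atoh1, the repressor and its target at the centre of the pathway, gave r = -0.70 and rho = -0.64, with permutation p-values of 0.00534 and 0.0166 that became 0.0556 and 0.124 after adjustment over the 45 pairs, so this relation did not pass the correction. It was -0.57 on slide 1 and -0.94 on slide 2, and 0.24 among the NPD and -0.94 among the HPD rats, a difference that was not tested. Without the 2 farthest arrays r was -0.51. Notch1 and Hes1 ran together at r = 0.66 and rho = 0.68 (adjusted permutation p = 0.0556 and 0.0842), and r fell to 0.36 without the 2 farthest arrays, among them HPD replicate 1. Cdx1 and Cdx2 (r = -0.07) and Atoh1 and Spdef (r = 0.02) showed no relation that could be detected with 14 arrays.

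**Figure D4:**
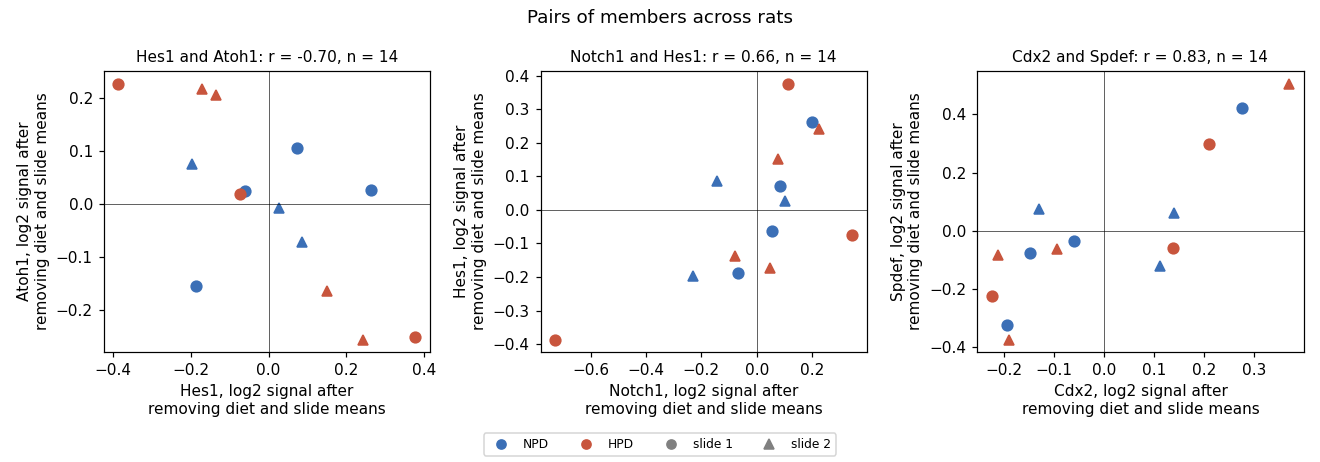
Log2 signal of 3 pairs of members in each rat after removing the diet and slide means, with NPD in blue, HPD in red, circles for slide 1 and triangles for slide 2. The Hes1 and Atoh1 points slope down (r = -0.70, n = 14), and the Notch1 and Hes1 points slope up (r = 0.66) with a single HPD rat at the lower left. The points of Cdx2 and of Spdef on its probe at position 1669 slope up (r = 0.83).

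Members differed in how many other genes ran with them. Among 15288 genes measured on every array, 47 correlated with Spdef on its probe at position 1669, 45 with Cdx2 and 39 with Gfi1 at r above 0.9. The count was 8 for Cdx1, 5 for Dll1, 3 for Klf4, 1 for Hes1 and 0 for Atoh1, Notch1 and Hnf4a. The most alike gene was Aldh1b1 for Spdef (r = 0.98), Ccnk for Cdx2 (0.96), Cnot1 for Gfi1 (0.95), Zfp513 for Dll1 (0.96) and Lrch1 for Hes1 (0.93). It was Eif5b for Atoh1 (0.88), Ifrd1 for Klf4 (0.94), Fam160b2 for Hnf4a (0.88), LOC684112 for Notch1 (0.90) and the unnamed probe A_64_P160442 for Cdx1 (0.97). These values describe likeness over 14 arrays and carry no test. Each most alike gene was picked as the highest of 15288 correlations, and how high such a maximum runs by chance was not computed.

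**Figure D5:**
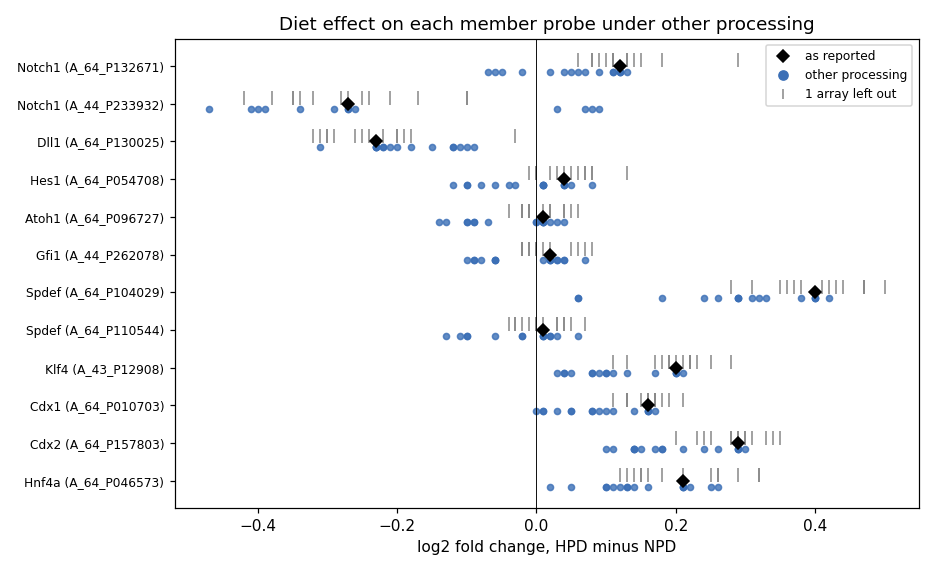
Log2 fold change (HPD minus NPD) of each member probe as reported (black diamonds), under other processing (blue circles) and with 1 array left out (grey ticks). The deposited values, given by gene name, are drawn with the brightest probe of each gene. Spdef at position 1669, Klf4, Cdx1, Cdx2 and Hnf4a stay at or above 0 and Dll1 stays below 0, while Hes1, Atoh1, Gfi1, the other Spdef probe and both Notch1 probes lie on both sides of 0.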

How the data were processed

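Each array's scanner output was deposited by the authors, made with Agilent Feature Extraction 10.7.3.1, with the linear intensity of every spot, raw and net of background. A normalized log2 table by gene name, likewise deposited by the authors, served as an alternative. Their fit is stated to use limma, diet as the fixed effect and a q-value cut-off of 0.1. The signal column and the statistic for centring are not named in the sources used here, and normexp, or the deposited values when slide is a block, call many more features than the 17 probes of the fit used here, so a count of 0 called holds for this fit. Samples that the study set aside as outliers were not analysed here. Diet and replicate number came from the labels, and columns of other samples numbered 0.

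Here, without control and outlier spots, net signals were turned to log2, spots of a probe were averaged, and each array was centred on its median probe. limma 3.58.1 in R 4.3.3 (lmFit, eBayes, diet alone, Benjamini-Hochberg over 30367 probes) gave every q-value, and exact two-sided permutation tests used the 1716 distinct splits into 7 and 7 arrays (smallest p 0.000583) or the 1225 regroupings within slides. No filter on signal was applied. The number of arrays limits the precision. Files were read with the data.table package (version 1.17.8), and Python 3 tools (pandas, matplotlib) handled sequences and plots.

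The genes named are all members, in each list those called and the 4 with the smallest p, and for each member its most alike gene. The results of some listed genes are not reported here. The members and lists were chosen with earlier results of these data known. Goblet, epithelial, immune and stromal markers are reported, and further marker lists (absorptive, enteroendocrine, stem and cycling, tuft, red blood cell) had 0 genes called. Alternatives were the mean and median pixel signal, the mean or the 75th percentile as the centre, quantile and cyclic loess normalization, normexp (offset 50), a filter on dim probes, slide or replicate number as a block, a trend in eBayes, the deposited table, a threshold of 0.05, the mean of a gene's probes, and each array left out. Cyclic loess or normexp with slide as a block were added after seeing the data. Symbols are those of the array design, and 11 of 12 member probes had an accession that RefSeq's GRCr8 table gives the same symbol.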

Additional observations from a re-analysis of the deposited data

Results flagged for a closer look

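Among 58 combinations of a named probe and a diet, 6 held a rat whose gap to its nearest neighbour was large against the range of its group, and chance flags about 1 in 20 groups. Of these, 2 are members. Notch1 was 3.51 in HPD replicate 1, with the next rat at 4.35 and the highest at 4.89. Dll1 was -1.26 in HPD replicate 7, with the next rat at -0.28, and the diet difference of -0.23 became -0.03 without it. The others are listed genes. HPD replicate 1 stood apart for Nr5a2 as well, at 4.09 against a next value of 3.48. Without that rat the diet difference of Nr5a2 went from -0.38 to -0.49. Dtx4 was -0.45 in NPD replicate 6, below the next rat at -0.05. Neurog3 was -0.60 in NPD replicate 7, above the next rat at -0.91. Isl1 was -2.0 in HPD replicate 5 against -3.31, on a probe that few arrays measured well above background. Each of the 6 diet differences missed a q-value of 0.1 in limma with and without its rat.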

How the results depend on the processing

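The deposited values, given by gene name, were counted here with the brightest probe of each gene. In 355 fits of a member probe or gene under other processing, limma called 0 (lowest q 0.181), and 297 kept the direction. The other 58 lay on the far side of 0, all among Hes1, Atoh1, Gfi1, the Spdef probe at position 1240 and both Notch1 probes. With the mean pixel signal, Hes1 was -0.06, Atoh1 -0.09, Gfi1 -0.06, that Spdef probe -0.10 and the dim Notch1 probe 0.08, and with the median pixel signal -0.04, -0.10, -0.06, -0.10 and 0.03. Centring on the mean gave -0.03, -0.07, -0.06 and -0.06 for the first 4, and quantile or cyclic loess normalization -0.02 for that Spdef probe. Normexp gave Hes1 -0.10, Atoh1 -0.13, Gfi1 -0.09, that Spdef probe -0.13, and the Notch1 probes -0.02 (3′) and 0.09. With slide as a block added, normexp gave -0.12, -0.10, -0.09, -0.11, -0.06 and 0.07. The deposited table gave Hes1 -0.08, Atoh1 -0.14, Gfi1 -0.10 and Notch1 -0.05, and with slide as a block -0.10, -0.09, -0.08 and -0.07. With normexp and slide as a block, the members that kept their direction became smaller: Spdef at position 1669 fell from 0.40 to 0.18, Klf4 from 0.20 to 0.03, Cdx1 from 0.16 to 0.01, Cdx2 from 0.29 to 0.10, Hnf4a from 0.21 to 0.02 and Dll1 from -0.23 to -0.09. Other settings made them larger. Over all settings Spdef ran from 0.18 to 0.50 on its probe at position 1669, beside 0.06 in the deposited values by gene name. Klf4 ran from 0.03 to 0.28 and Cdx1 from 0 to 0.21. Cdx2 ran from 0.10 to 0.35, Hnf4a from 0.02 to 0.32 and Dll1 from -0.32 to -0.03. With 1 array left out, Hes1 ranged from -0.01 to 0.13, Atoh1 from -0.04 to 0.06, Gfi1 from -0.02 to 0.08 and that Spdef probe from -0.04 to 0.07. The cause of these moves was not tested.

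Members called stayed at 0 in every setting. The pathway lists held 9, 20, 12, 22 and 16 genes on the array, of which 0 were called in the main fit. With normexp 6 were called (among them Rfng, Hes7, Hey2 and Nr5a2), beside 16.9% of all gene names. Normexp with slide as a block called 11, beside 8479 of the 30367 probes. The deposited values with slide as a block called 5 (among them Rfng, Rbpj and Nr5a2), beside 10.5% of the genes there. Probes called went from 17 to 5142 with normexp, 8479 with normexp and slide, 27 with slide as a block, 40 with cyclic loess and slide, and 2767 in the deposited table with slide. With 1 array left out they ranged from 9 to 151, the latter without HPD replicate 1. With the replicate number as a block 8 probes were called, and 0 with slide added, where Atoh1 moved to 0. Same-numbered arrays correlated at -0.09 to 0.39 in their deviations, and 5 of 14 correlated best with their own number. How many would do so by chance was not computed. Numbers 1 to 3 lay on slide 1 and numbers 5 to 7 on slide 2 in both diets, so number and slide are largely tied. The rats were treated as unpaired, and whether the numbers pair them was not settled. Arrays limit precision: the widest 95% interval of an always-measured member probe reached 0.51 to either side, and a dim probe such as the second Notch1 probe gives little more than a bound.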
